A study of Mus musculus with 9 samples.

Results

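Intermediate filament genes were followed in the dorsal root ganglia (DRG) that mouse embryos have at E18.5: the neurofilament subunits Nefl, Nefm and Nefh, alpha-internexin (Ina), peripherin (Prph), vimentin (Vim), nestin (Nes) and the glial fibrillary acidic protein gene (Gfap). They were chosen by symbol, and all 8 were found among the 55247 genes of the deposited table, each on 1 row, and all 8 passed the filter on low counts. RNA was sequenced in 9 libraries, 3 for each of 3 genotypes. WT embryos were labelled WT alone, and whether any carried LoxP sites is not stated. In Isl1Cre/+ embryos, Cre recombinase was knocked into 1 Isl1 allele. The Isl1Cre/+::Meis2LoxP/LoxP embryos, here the mutant, had the same Cre allele together with LoxP sites around exon 8 on both Meis2 alleles. The Cre allele is thus shared by the mutant and the Isl1Cre/+ control, it takes the place of 1 copy of Isl1, and it is active in the neurons of the ganglion and in other cells with a history of Isl1. Whole ganglia were lysed, so that neurons, glia and connective tissue contributed to each library, and fewer cells of a type cannot be told apart from less RNA per cell. Nothing in the labels ties a library to a litter or to a number of embryos, so that p-values measure the spread between these libraries.

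Intermediate filaments are ropes of coiled-coil proteins that give cells and axons mechanical strength. In axons, the light chain Nefl is the core on which the medium and heavy chains Nefm and Nefh assemble, and the long tails of both heavier chains space the filaments and set axon calibre. Large myelinated afferents are rich in Nefh, which makes it a common marker of large-fibre neurons, while small unmyelinated afferents are rich in peripherin, and alpha-internexin is a subunit of young neurons. Vimentin and nestin belong to fibroblasts, endothelium, glia and progenitors, and Gfap is the filament of astrocytes and of some peripheral glia.

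On mm10, Nefl (ENSMUSG00000022055.7) lies on the forward strand of chromosome 14 from 68083863 to 68089095, and Nefm (ENSMUSG00000022054.11) on the reverse strand of the same chromosome from 68082590 to 68124846. An alternative last exon of Nefm reaches into Nefl from the other strand, and 1108 exonic bases are shared, 32.8% of those of Nefl and 19.2% of those of Nefm. The strand option of the authors' counting is not stated, and reads from the shared bases could not be assigned to either gene here. Nefh (ENSMUSG00000020396.8) lies on chromosome 11 from 4938754 to 4948064, Prph (ENSMUSG00000023484.14) on chromosome 15 from 99055174 to 99058978 and Ina (ENSMUSG00000034336.3) on chromosome 19 from 47014698 to 47025327. Vim (ENSMUSG00000026728.9) is on chromosome 2 from 13573927 to 13582826, Nes (ENSMUSG00000004891.16) on chromosome 3 from 87971078 to 87980451 and Gfap (ENSMUSG00000020932.14) on chromosome 11 from 102887336 to 102900912. Ina shares 456 exonic bases, 14.1% of its own, with Nt5c2 on the opposite strand, a gene with 1963 to 2490 counts per library. Gfap lies within the span of the long noncoding RNA gene Gm26668, without a shared exonic base.

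RefSeq promoter windows on GRCm38.p6 were at hand for 5 of the 8 genes, Prph, Ina, Vim, Nes and Gfap. Because the deleted gene encodes a homeodomain factor, the 250 bases before each start were searched on both strands for TGACAG, the core of the site that Meis proteins bind, and for the TATA box TATAAA; the letters of these motifs do not overlap. Of all 32817 RefSeq windows, 15.9% held TGACAG and 12.4% held TATAAA. The stretches with a match are given below 5′ to 3′ on the strand of the gene, with the motif in capitals. They are shown because they are the members' matches among the 5 windows searched; Nefl, Nefm and Nefh were not searched.
Gfap, chr11:102897399-102897428, reverse strand, TGACAG from 216 bases before the start: ggtcttcatgctTGACAGgcaagcaattta
Prph, chr15:99055131-99055160, forward strand, TATAAA from 31 bases before the start: agaccgcagggcTATAAAgccgccccgcat
Vim, chr2:13574267-13574296, forward strand, TATAAA from 32 bases before the start: tcctaacagtgtTATAAAagcagcgccctt
A match is a string of letters and does not show that a protein binds there. TGACAG was thus found in 1 of 5 windows and TATAAA in 2 of 5, numbers too small to set against the shares over all windows.

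The libraries held 23854607 to 29103444 counts, and tests covered the 13200 genes that reached 100 counts in some library. Counts were scaled by edgeR's TMM method and are given as cpm, the count per 1000000 counts of the library. WT library 1 and mutant library 2 stood apart from the rest, with median rank correlations of 0.981 and 0.979 with the other 8 libraries, against 0.991 to 0.995. Meis2 had 2746 to 2919 counts in WT, 2537 to 2857 in Isl1Cre/+ and 1004 to 1084 in mutant libraries, so that each mutant library was below every control library. Isl1 was lower than in WT by 0.48 on the log2 scale in both genotypes with the Cre allele.

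All members but Nes and Gfap were among the abundant transcripts of the ganglion. The 8 genes together took 1.301% to 2.16% of all counts of a library, and Nefl, Nefm and Nefh alone took 0.928% to 1.69%. Per kilobase of exon in WT, Nefl came first among the members with 1713 ± 588 cpm per kb (SD, n = 3), followed by Prph with 1137 ± 339 and Nefm with 927 ± 472. Nefl was the gene of rank 7, Prph of rank 10 and Nefm of rank 13 among 13067 genes with a known length. Peripherin, the small-fibre subunit, was thus of the same order as the neurofilament light chain at this stage.

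Below these, Nefh reached 355 ± 106 cpm per kb in WT (rank 48), Vim 278 ± 30.9 (rank 84) and Ina 134 ± 6.43 (rank 224). Nes, at 7.71 ± 1.03 cpm per kb, had rank 5856, and Gfap, at 0.974 ± 0.976, had rank 12362, near the bottom of the genes tested. Within each library, Nefl was above Prph by 1.33 to 1.60 times, and Prph above Nefm by 1.04 to 1.59 times. Nefh and Vim were not separated, with Nefh the higher of both in 6 of 9 libraries. The order of the upper genes depends on the length used. With the 3334 bases of the main coding transcript of Nefm in place of its 5782 exonic bases, Nefm rose in the order to 1607 ± 818 cpm per kb, next to Nefl, which it exceeded in 1 of 9 libraries, and Vim, with 2193 in place of 4743 bases, came to 601 ± 66.8 and exceeded Nefh in all 9.

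**Figure D1:**
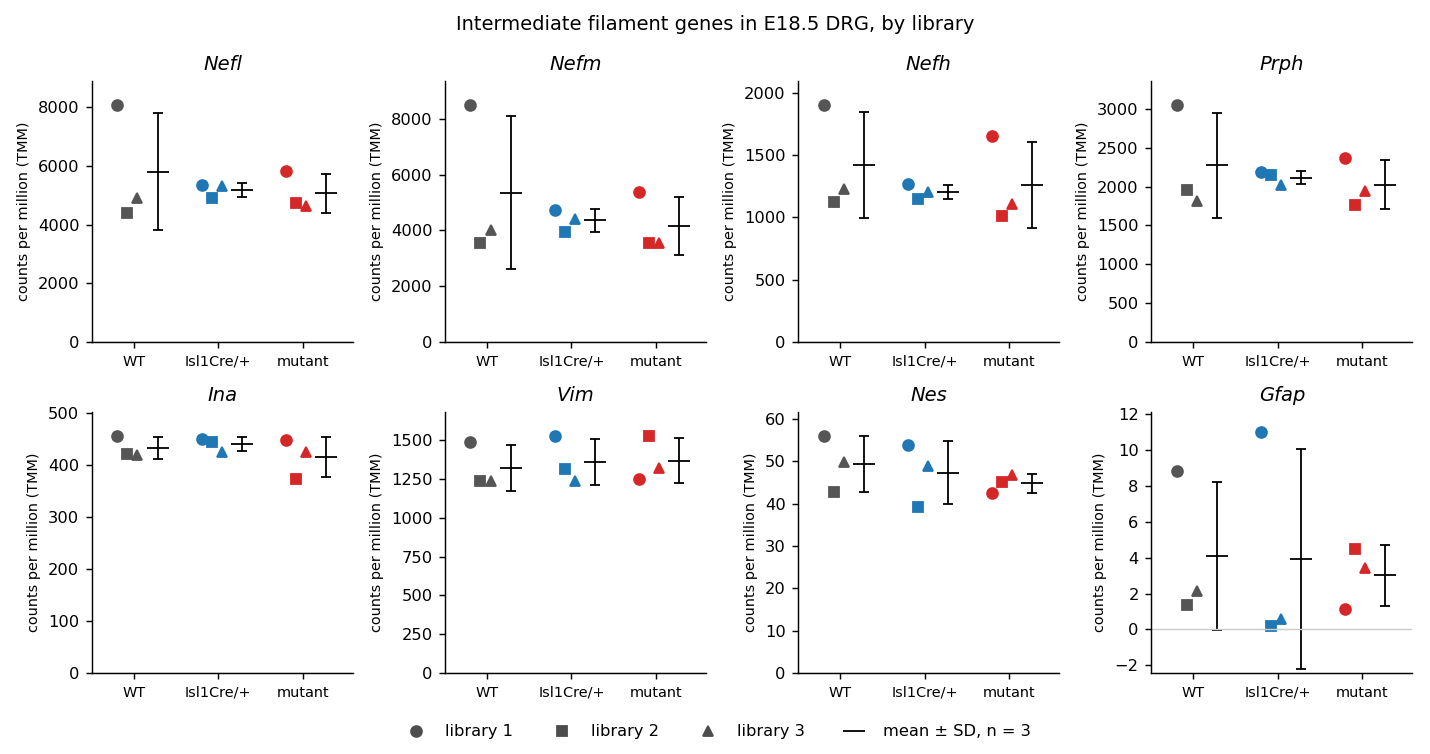
TMM-scaled cpm of the 8 intermediate filament genes on linear axes, with a symbol for each library and the mean ± SD of 3 libraries beside it. WT library 1 was the highest of all 9 for Nefl, Nefm, Nefh and Prph, the 3 genotypes overlap for each gene, and the SD of Gfap is as large as its mean or larger in WT and Isl1Cre/+.

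The first question was whether the filaments of the axon differed between the mutant and its controls. Nefl, the core subunit, had 8067, 4401 and 4900 cpm in the WT libraries, 5327, 4887 and 5292 in the Isl1Cre/+ libraries and 5829, 4717 and 4628 in the mutant libraries. WT library 1 was far above the others, and the remaining 8 lay within a narrow band in which the genotypes overlapped. In the mutant, the log2 fold change of Nefl was -0.19 (SE 0.24) against WT and -0.03 (SE 0.11) against Isl1Cre/+, with unadjusted p of 0.443 and 0.789 in edgeR's quasi-likelihood test. The 95% interval allowed a level of 0.592 to 1.29 times that of WT and 0.815 to 1.18 times that of Isl1Cre/+.

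Nefm, the medium chain, had 8496, 3563 and 4014 cpm in WT, 4724, 3932 and 4419 in Isl1Cre/+ libraries and 5366, 3550 and 3567 in mutant libraries. As for Nefl, WT library 1 was at the top and mutant library 1 next, while the lowest libraries were close together. Its log2 fold change in the mutant was -0.36 (SE 0.35) against WT and -0.07 (SE 0.17) against Isl1Cre/+, p of 0.327 and 0.713, so that both differences were within the spread between libraries.

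Nefh, the heavy chain that marks large-fibre neurons, had 1902, 1124 and 1230 cpm in WT, 1265, 1149 and 1204 in Isl1Cre/+ libraries and 1653, 1011 and 1109 in mutant libraries. WT library 1 and mutant library 1 were again the highest. The log2 fold change of the mutant was -0.17 (SE 0.26) against WT and 0.06 (SE 0.18) against Isl1Cre/+, p of 0.517 and 0.743. The mutant level was thus 0.886 times that of WT, with an interval of 0.586 to 1.34, and 1.04 times that of Isl1Cre/+, with an interval of 0.782 to 1.39.

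Ina, the subunit of young neurons, was the steadiest of the neuronal filaments. It had 457, 421 and 420 cpm in WT, 451, 445 and 425 in Isl1Cre/+ libraries and 449, 374 and 425 in mutant libraries, and mutant library 2, the lowest, was also the library with the lowest share of pan-neuronal transcripts (0.888% of counts against 0.970% to 1.03%). The log2 fold change of the mutant was -0.06 (SE 0.10) against WT and -0.08 (SE 0.08) against Isl1Cre/+. The intervals, 0.813 to 1.14 and 0.826 to 1.08 times the control, were the narrowest among the neuronal filaments.

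Prph, the filament of small unmyelinated afferents, had 3050, 1961 and 1810 cpm in WT, 2181, 2151 and 2014 in Isl1Cre/+ libraries and 2369, 1758 and 1946 in mutant libraries. WT library 1 and mutant library 1 were the highest, as they were for the neurofilaments. The log2 fold change of the mutant was -0.17 (SE 0.22) against WT and -0.06 (SE 0.12) against Isl1Cre/+, p of 0.469 and 0.608. The ratio of Nefh to Prph counts, large-fibre to small-fibre filament, was 0.573 to 0.680 in WT, 0.534 to 0.598 in Isl1Cre/+ and 0.570 to 0.698 in mutant libraries, and these ranges overlapped.

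Vim, the filament of mesenchymal cells and glia, had 1488, 1234 and 1234 cpm in WT, 1525, 1314 and 1236 in Isl1Cre/+ libraries and 1251, 1527 and 1321 in mutant libraries. The high libraries were WT library 1, Isl1Cre/+ library 1 and mutant library 2, that is, 1 in each genotype. The mutant differed from WT by a log2 fold change of 0.05 (SE 0.13) and from Isl1Cre/+ by 0.01 (SE 0.11), p of 0.698 and 0.941. The summed level of 10 fibroblast markers was the highest in mutant library 2 (5684 cpm) and Isl1Cre/+ library 1 (5269 cpm) and the lowest in mutant library 1 (3066 cpm), and the part of fibroblasts in the spread of Vim was not tested. No fibroblast marker was at 0 in all libraries, and the sums were 3436 to 4875 cpm in WT, 3598 to 5269 in Isl1Cre/+ and 3066 to 5684 in mutant libraries.

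Nes, a filament of progenitors, glia and endothelium, had 55.9, 42.7 and 49.8 cpm in WT, 53.9, 39.3 and 49.0 in Isl1Cre/+ libraries and 42.5, 45.1 and 46.8 in mutant libraries. The mutant libraries overlapped those of either control. The log2 fold change was -0.14 (SE 0.11) against WT, with an unadjusted p of 0.245, the smallest of any member in that comparison, and -0.08 (SE 0.12) against Isl1Cre/+, with a p of 0.505.

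In counts rather than cpm, Gfap had 236, 38 and 62 reads in the WT libraries, 325, 5 and 17 in the Isl1Cre/+ libraries and 30, 118 and 84 in the mutant ones. Libraries of the same genotype thus differed by more than the genotypes did, and the highest library exceeded the lowest by 61.9 times in cpm. The log2 fold change of the mutant was -0.45 (SE 0.75) against WT and -0.39 (SE 1.196) against Isl1Cre/+, and the interval of the latter ran from 0.110 to 5.30 times the control level. A difference between the genotypes was therefore not detectable for Gfap in these libraries unless it was very large.

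**Figure D2:**
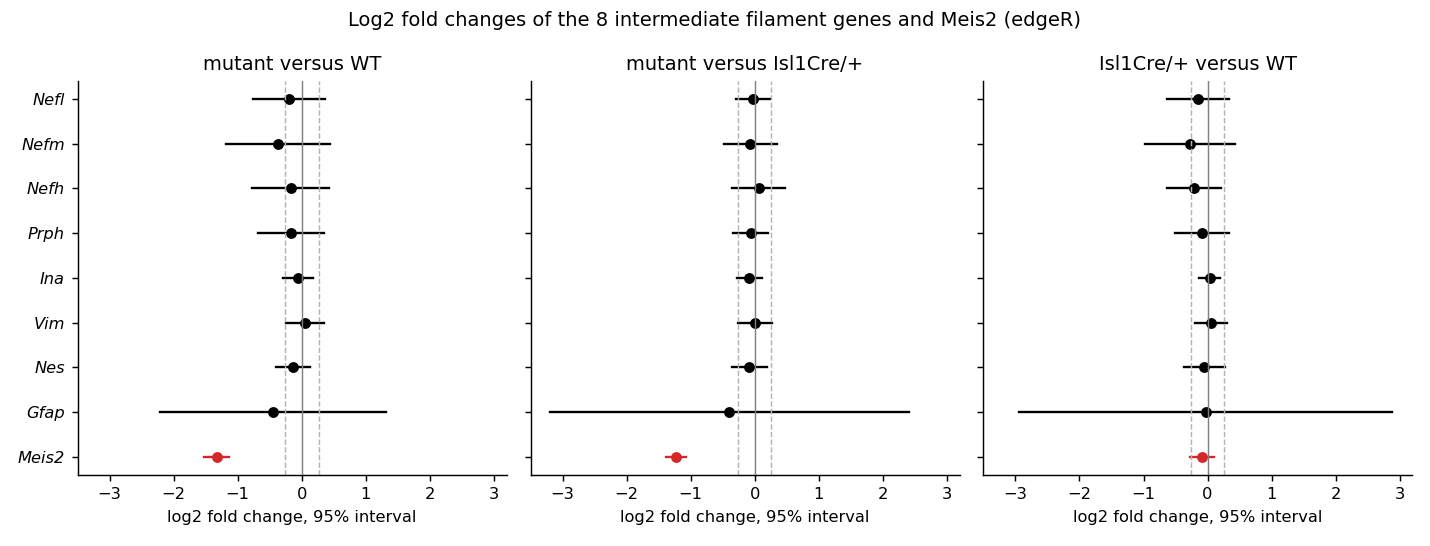
Log2 fold changes (points) with 95% intervals (lines) from edgeR for the 8 filament genes and Meis2, in red, in the 3 comparisons; dashed lines mark a fold change of 1.2. All intervals of the filament genes include 0, those of Gfap span several log2 units, and Meis2 lies at -1.33 and -1.23 in the comparisons of the mutant.

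Counted over the family, 0 of 8 genes met the criterion of the study, which asks for a 1.2-fold difference and an unadjusted p under 0.05, in the mutant against WT, where 0.318% of all tested genes did. Against Isl1Cre/+, 0 of 8 met it, beside 1.67% of all tested genes, and in Isl1Cre/+ against WT 0 of 8, beside 1.4%. An adjusted p under 0.05 was reached by none of the 8 in any comparison, where edgeR's adjusted p was at least 0.99969 for each of them, beside 0.00758%, 0.00758% and 0% of all tested genes in the same order. The number of members with an unadjusted p under 0.05 was 0 in each comparison by edgeR, by the Wald test of DESeq2 and by limma voom alike. The libraries of the genotypes compared overlapped for all 8 genes in each comparison, while they did not overlap for 2.76%, 7.65% and 5.66% of all tested genes. Without WT library 1 and mutant library 2, a choice made after seeing the data, the count in the mutant against WT was also 0.

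The Cre allele alone was examined in Isl1Cre/+ against WT. Nefl had a log2 fold change of -0.15 (SE 0.20), Nefm of -0.28 (SE 0.30), Nefh of -0.22 (SE 0.18) and Prph of -0.09 (SE 0.18). None of these passed the test, and all of them changed sign when WT library 1 was left out, to 0.14, 0.19, 0.02 and 0.15. Without that library, Prph had an unadjusted p of 0.0327 in edgeR, at a fold change below the 1.2 of the criterion. Ina, Vim and Nes lay at 0.04 (SE 0.07), 0.06 (SE 0.11) and -0.05 (SE 0.14), and Gfap at -0.03 (SE 1.24). The comparisons share libraries, WT or mutant or Isl1Cre/+, and are therefore not independent of each other.

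In the mutant against WT, 7 of the 8 members lay below 0 and 1 above, with a median log2 fold change of -0.17, beside -0.01 over all tested genes. Against Isl1Cre/+, 6 lay below 0 with a median of -0.07, beside 0.00 over all tested genes, and in Isl1Cre/+ against WT 6 lay below 0 with a median of -0.07. The direction of Nefl, Nefm, Nefh and Prph in the mutant against WT came from a single control library. When WT library 1 was left out, their log2 fold changes became 0.12, 0.14, 0.10 and 0.10, and none passed the test. That of Ina changed sign without mutant library 2, to 0.0352.

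Against Isl1Cre/+, leaving out mutant library 1 gave a lower Nefm in the mutant, with a log2 fold change of -0.30 (unadjusted p of 0.0267 in edgeR), and leaving out Isl1Cre/+ library 1 gave a higher Gfap, at 2.94 (unadjusted p of 0.00797). In Isl1Cre/+ against WT, leaving out Isl1Cre/+ library 1 gave a lower Gfap, at -3.35 (unadjusted p of 0.0186 in edgeR). These are the cases in which a member met the criterion once 1 library was left out, and their adjusted p was not under 0.05.

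The spread of the filament genes between libraries was compared with that of other genes. Within genotypes, the SD of Nefm on the log2 scale was 0.45, larger than that of 97.8% of 10393 genes with a mean of at least 10 cpm. Nefh followed with an SD of 0.32 (95.2%), Nefl with 0.29 (93.3%) and Prph with 0.27 (91.2%). The same SD was 0.18 for Nes (73.1%), 0.15 for Vim (62.0%) and 0.09 for Ina (24.3%), and it was 1.92 for Gfap, larger than that of 99.9% of these genes.

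Counting error was not the limit for the abundant members. It gave a coefficient of variation of 0.261% for Nefl and 0.280% for Nefm, while that between libraries of a genotype was 22.8% and 36.8%. For Gfap it was 9.92% against 119%. Without WT library 1, the SD of Nefl fell to 0.13 and that of Prph to 0.15, larger than in 75.1% and 80.3% of genes, while Nefm with 0.24 and Nefh with 0.25 still exceeded 92.8% and 93.3%.

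The libraries with the highest neurofilament levels were those with the most mitochondrial transcripts. Transcripts of the mitochondrial genome took 8.58% of counts in WT library 1 and 7.19% in mutant library 1, against 5.37% in mutant library 2 and 3.04% to 3.995% in the remaining 6. Relative to the mean of the 9 libraries, Nefl, Nefm, Nefh and Prph stood at 0.62, 0.93, 0.58 and 0.53 on the log2 scale in WT library 1, and at 0.15, 0.27, 0.38 and 0.17 in mutant library 1. In mutant library 2, the next in mitochondrial share, they stood at -0.16, -0.32, -0.33 and -0.26. The part of RNA quality or of tissue composition in these levels was not tested. With the mitochondrial share in the model, a choice made once the values were known, 0 of 8 members met the criterion in each comparison, Nefl lay at -0.18 against Isl1Cre/+ and at 0.12 in Isl1Cre/+ against WT, and Nefm moved from -0.07 to -0.33 against Isl1Cre/+ (unadjusted p of 0.139 in edgeR).

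**Figure D3:**
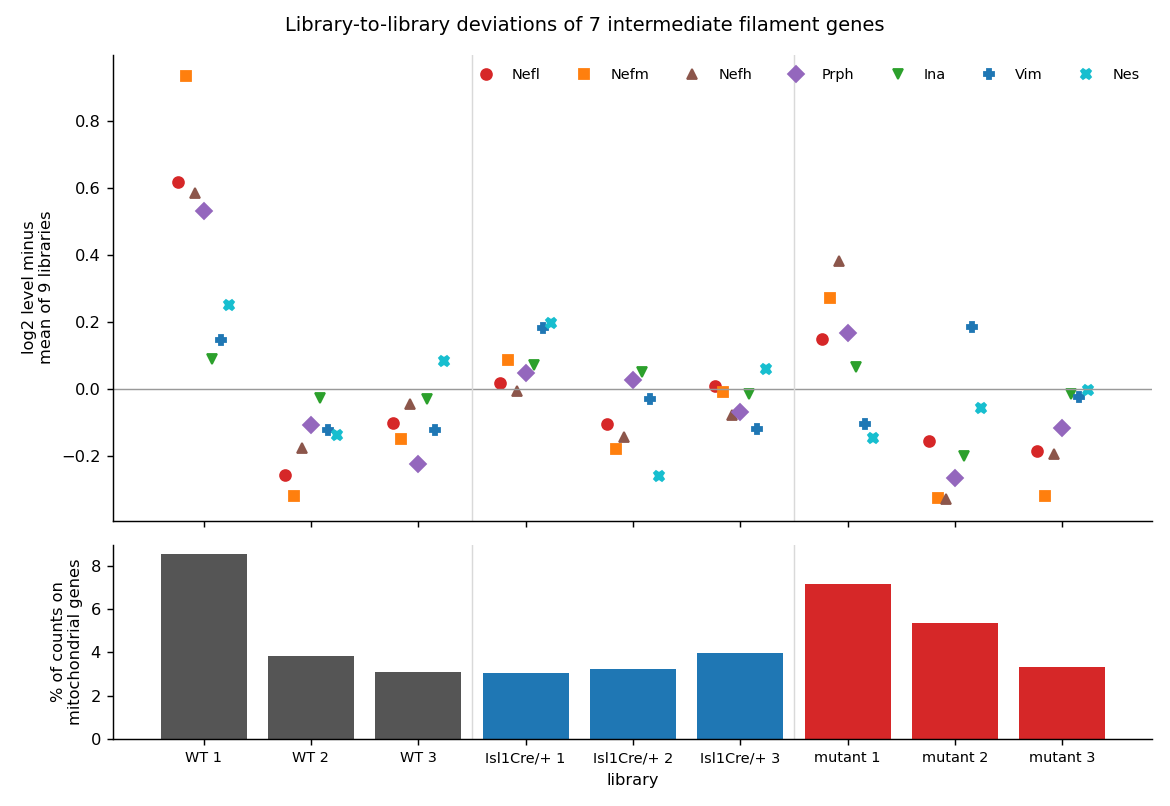
Upper panel, log2 level of 7 filament genes in each library minus the mean of the 9 libraries; lower panel, percent of counts on mitochondrial genes, coloured by genotype. Nefl, Nefm, Nefh and Prph stand together at 0.53 to 0.93 in WT library 1, where the mitochondrial share was 8.58%, while Ina, Vim and Nes stay within 0.26 of 0 in all libraries.

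Neurofilament subunits varied together over the libraries, as they also did with genes outside the family. Over the 9 libraries, Pearson's r of log2 cpm was 0.992 for Nefl and Nefm (exact permutation p = 2.2e-05, adjusted over 8 pairs 0.000176, Spearman's rho 0.950 with permutation p = 0.000353), and it was 0.942 without WT library 1 and mutant library 1, the 2 libraries farthest from the median of Nefl (permutation p = 0.00159). These genes share 1108 exonic bases, and the part of common reads in this likeness was not tested. For Nefm and Nefh, on another chromosome, r was 0.950 (exact permutation p = 4.41e-05, adjusted 0.000176, rho 0.967 with permutation p = 0.000165), and it was 0.839 without these 2 libraries (permutation p = 0.0131).

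For Nefl and Nefh r was 0.922 (exact permutation p = 0.000609, adjusted 0.00162, rho 0.917 with permutation p = 0.00131). It came to 0.670 in the 7 libraries left without the 2 (permutation p = 0.0956). Leaving out the libraries farthest from the median of Nefl narrows its range. This fall therefore cannot tell how far the relation rested on them. Nefl and Prph, large-fibre and small-fibre filaments of the axon, had r = 0.919 (exact permutation p = 0.00285, adjusted 0.00571, rho 0.767 with permutation p = 0.0214). Without these libraries r was 0.462 (permutation p = 0.297), with the same limit.

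Nefl and Ina had r = 0.569 (exact permutation p = 0.121, adjusted 0.161, rho 0.767 with permutation p = 0.0214), and the sign of r depended on the scaling. Nefl and Vim had r = 0.354 (exact permutation p = 0.387, adjusted 0.387, rho 0.167 with permutation p = 0.678), and Vim and Nes had r = 0.469 (exact permutation p = 0.200, adjusted 0.228, rho 0.200 with permutation p = 0.613). Without the 2 farthest libraries, r was 0.412 for Nefl and Ina, 0.230 for Nefl and Vim and 0.505 for Vim and Nes. For Vim and Gfap r was 0.718 (exact permutation p = 0.0336, adjusted 0.0538, rho 0.633 with permutation p = 0.0760), and it was 0.567 without Isl1Cre/+ library 1 and mutant library 2 (permutation p = 0.205). Taken as deviations from the genotype means, r was 0.993 for Nefl and Nefm, 0.923 for Nefl and Nefh, 0.955 for Nefm and Nefh, 0.917 for Nefl and Prph and 0.809 for Vim and Gfap. These within-genotype values rest on all 9 libraries, WT library 1 and mutant library 1 included.

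The ratio of Nefm to Nefl counts was 1.05 in WT library 1 and 0.920 in mutant library 1, and 0.753 to 0.887 in the other 7. The ratio of Nefh to Nefl counts was 0.214 to 0.284, with both the lowest and the highest value in mutant libraries. The medium chain thus varied more than the light chain from library to library, without a separation of the genotypes.

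The 3 genes with the pattern nearest to each member, by Pearson's r over the 9 libraries among 10393 genes, were searched as a description. For Nefl they were Nefm (0.992), Nrip3 (0.984) and Fbxo2 (0.981), and for Nefm they were Nefl (0.992), Rbm17 (0.979) and Prpf31 (0.978). Nefh was nearest to Khdrbs3 (0.977), Utp3 (0.975) and Zrsr2 (0.969), all above its r with Nefm (0.950) and Nefl (0.922). Prph was nearest to Elfn1 (0.991), Chga (0.991) and Phyhipl (0.989). For Ina they were Plxna3 (0.973), Jup (0.972) and the axonal adhesion gene L1cam (0.971), for Vim Slc12a7 (0.977), Megf6 (0.973) and Plxnb2 (0.972), and for Nes Slc9a3r1 (0.900), Srsf9 (0.891) and Plekha4 (0.888). Gfap was nearest to Ddx39 (0.957), to the astrocyte water channel gene Aqp4 (0.918) and to Gmppa (0.909). All of these values share the same 9 libraries.

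The spread of Gfap was set beside markers of spinal cord glia, since the ganglia lie against the cord. Olig1, a transcription factor of the oligodendrocyte lineage, had 62, 36 and 12 counts in WT, 22, 1 and 2 in Isl1Cre/+ libraries and 8, 30 and 18 in mutant libraries. Olig2 had 40, 16 and 5 reads in WT libraries, then 10, 0 and 0 with the Cre allele alone and 3, 14 and 2 in the mutant. The libraries with the fewest Gfap reads, Isl1Cre/+ libraries 2 and 3, were those in which Olig2 was at 0.

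The glutamate transporter gene Slc1a3, which satellite glia of the ganglion express as well, had 687, 437 and 477 counts in WT, 802, 343 and 243 in Isl1Cre/+ libraries and 293, 942 and 324 in mutant libraries. The connexin gene Gjb6 had 634, 398 and 460 reads in WT libraries, then 693, 378 and 270 with the Cre allele alone and 295, 1049 and 285 in the mutant. Both were high in WT library 1, Isl1Cre/+ library 1 and mutant library 2, the 3 libraries with the most Gfap counts. In the same 3 libraries Aldh1l1 had its highest level of each genotype, at 10.5, 10.8 and 11.5 cpm. So did Slc1a2, at 14.4, 13.7 and 11.6 cpm. Cspg5, Aqp4 and Mfge8 ordered the libraries in other ways. Cspg5 stood at 33.5 to 40.3 cpm over the 9 libraries, with the peak in WT library 1 and with 37.9 cpm in Isl1Cre/+ library 3 against 34.1 in Isl1Cre/+ library 1, where Gfap had 17 and 325 counts. The water channel gene Aqp4 had 22.4, 16.2 and 18.1 cpm in WT, 23.4, 14.0 and 14.6 in Isl1Cre/+ libraries and 17.4, 16.8 and 19.4 in mutant libraries. Its peak was in Isl1Cre/+ library 1, as for Gfap, but among mutant libraries it was the lowest in library 2, where Gfap was the highest. Mfge8 stood at 19.1 to 30.6 cpm, with the highest value in Isl1Cre/+ library 1, and at 24.9 and 26.9 cpm in mutant libraries 2 and 3. All 10 genes of the list were in the table, 7 were tested and none met the criterion in any comparison, while leaving out 1 library gave 0 to 2. Their summed level was 121 to 165 cpm in WT, 110 to 165 in Isl1Cre/+ and 114 to 180 in mutant libraries. Of the 17 markers of Schwann and satellite glia, 16 were tested and none met it either, with 0 to 3 once 1 library was left out. Their sums were 2000 to 2353, 2006 to 2431 and 2166 to 2175 cpm in the same order of genotypes. The part of spinal cord tissue in the Gfap counts was not tested.

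**Figure D4:**
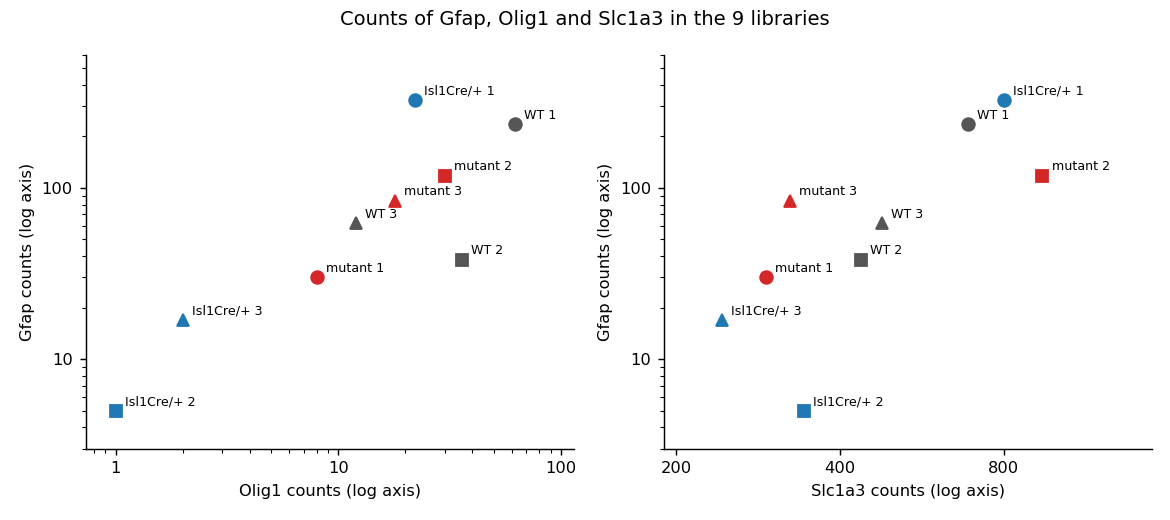
Counts of Gfap against counts of Olig1 (left) and Slc1a3 (right) in the 9 libraries, log axes, coloured by genotype. Gfap ran from 5 counts in Isl1Cre/+ library 2, where Olig1 had 1 count, to 325 in Isl1Cre/+ library 1, where Olig1 had 22.

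The neuronal lists gave the setting of the axonal filaments. Of 18 large-fibre neuron markers, 1 met the criterion in the mutant against WT, Calb2, the calcium buffer calretinin, which was lower, with a log2 fold change of -1.03 (SE 0.27, unadjusted p of 0.00596) and one of -0.80 (SE 0.32, unadjusted p of 0.0384) against Isl1Cre/+. In Isl1Cre/+ against WT, Spp1, the gene of osteopontin, was the 1 of 18 that met it, at -1.01 (SE 0.40, unadjusted p of 0.0381). Of 14 nociceptor markers tested, the heat and capsaicin channel gene Trpv1 met it in the mutant against WT, at -0.39 (SE 0.10, unadjusted p of 0.00387), and none did in the other comparisons. Of 14 pan-neuronal genes, Isl1 alone met it, in both comparisons with WT. With any single library left out, Calb2 and Trpv1 still met it against WT, but Trpv1 lost it with scaling to pan-neuronal genes, at -0.33, and Calb2 against Isl1Cre/+ met it in 2 of 6 such fits and lost it without Isl1Cre/+ library 1 or 2 or mutant library 2 or 3 (-1.04 to -0.48), and Spp1 in 3 of 6, lost without WT library 3 or Isl1Cre/+ library 1 or 3 (-1.39 to -0.56). The call of Calb2 against Isl1Cre/+ was also lost with limma voom and with the mitochondrial share in the model. The filter of at least 100 counts in every library left Calb2 out. Under it, 0 large-fibre markers met the criterion in the mutant against WT. These lists were chosen with earlier results known, and no gene of them had an adjusted p under 0.05.

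Summed over the list, large-fibre markers stood at 1649 to 1771 cpm in WT, 1538 to 1706 in Isl1Cre/+ and 1587 to 1788 in mutant libraries. Nociceptor markers stood at 3256 to 3490, 3314 to 3573 and 2926 to 3670 cpm. Neither list had its peak in WT library 1 (1718 and 3256 cpm), where the axonal filaments had theirs. Pan-neuronal genes did in scaled cpm, with 11186 there against 8838 to 10743 in the other 8 libraries, but not as an unscaled share of counts, which was 1.026% there and 1.034% in mutant library 1.

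Per length, none of the other intermediate filament genes tested reached the level of Ina, while several lay above Nes and Gfap. Of 42 listed, 41 were in the table and 13 were tested, since 26 of 31 keratins stayed under 100 counts in every library. Synm, the gene of the large filament protein synemin, was the highest per length with 39.6 cpm per kb in WT. The nuclear lamin Lmnb1 followed with 23.7, the muscle filament partner syncoilin (Sync) with 15.03, the nuclear lamin Lmna with 13.8 and the keratin-like Krt222 with 13.3. In the mutant against WT, their log2 fold changes were -0.11, -0.13, -0.13, -0.06 and -0.14, and none of the 13 genes met the criterion.

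The criterion was met by Des and Krt10 alone. Des, the gene of the muscle filament desmin, had 15.9, 4.65 and 35.5 cpm in WT, 5.42, 7.86 and 3.76 in Isl1Cre/+ libraries and 5.16, 70.9 and 21.7 in mutant libraries. It was higher in the mutant than in Isl1Cre/+ by a log2 fold change of 2.52 (SE 0.83, unadjusted p of 0.0177) and lower in Isl1Cre/+ than in WT, at -1.71 (SE 0.66, unadjusted p of 0.0334), with mutant library 2 and WT library 3 at the top. The first call was lost without Isl1Cre/+ library 1 or 3 (1.24 to 3.03 over the 6 fits), and the second without WT library 3 or Isl1Cre/+ library 1 or 3 (-2.17 to -0.83). Both calls were also lost with limma voom, the first with robust quasi-likelihood and with the mitochondrial share in the model as well, and the second with all 3 genotypes in 1 fit and with a replicate block, so that each met the criterion in 8 of 11 such alternatives. The summed level of 10 skeletal muscle markers was 113 to 847 cpm in WT, 64.0 to 154 in Isl1Cre/+ and 134 to 2020 in mutant libraries. All 8 tested muscle markers, Acta1, Tnnt3, Ckm, Tnni2, Myh3, Tnnc2, Actn3 and Myh8, met the criterion in the mutant against Isl1Cre/+, at 0.98 to 3.42, and all but Actn3 in Isl1Cre/+ against WT, at -2.56 to -1.93. Leaving out 1 library took these counts to between 5 and 8 in the former, where Myh3 and Myh8 lost the call without Isl1Cre/+ library 2 or 3 or mutant library 2, and Ckm without Isl1Cre/+ library 3. In the latter they came to between 3 and 8, where Acta1, Ckm and Tnni2 lost it without WT library 3 or Isl1Cre/+ library 1 or 3, and Myh8 without Isl1Cre/+ library 2 or 3. With robust quasi-likelihood 3 muscle markers met the criterion in the former, Tnnt3, Tnnc2 and Actn3, and with limma voom Myh3 was the 1 that still met it of the 7 in the latter. The former count was 5 with limma voom, 6 with a replicate block and 4 with the mitochondrial share in the model, and the latter 3 with all 3 genotypes in 1 fit and 4 with a replicate block. The actin gene of muscle, Acta1, had 817 cpm in mutant library 2 and 363 in WT library 3, the libraries with the most Des. The part of muscle tissue in the Des values was not tested. Krt10, a keratin of skin, was lower in Isl1Cre/+ than in WT, at -0.43 (SE 0.14, unadjusted p of 0.0201), with 132 to 166 against 191 to 208 counts, and it lost the criterion without Isl1Cre/+ library 1 (lowest and highest value over the 6 fits -0.51 and -0.31).

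Partners of the filaments are the kinesins that carry them, the kinases that phosphorylate their tails, linkers and turnover factors. Of 32 genes listed, 31 were tested, and 0 met the criterion in any of the 3 comparisons. Unadjusted p was under 0.05 for 0, 1 and 0 of them in the mutant against WT, the mutant against Isl1Cre/+ and Isl1Cre/+ against WT, and their median log2 fold changes were -0.04, -0.02 and -0.02. No length was at hand for Dst, Macf1 and Arhgef28. Among the others, the motor gene Kif5a, the kinesin heavy chain linked to neurofilament transport, was the highest per length with 246 cpm per kb in WT. Its log2 fold change in the mutant was -0.12 against either control, with p of 0.531 and 0.359 in edgeR. The kinase gene Mapk3 followed with 219 cpm per kb, the kinesins Kif5c and Kif21a with 143 and 118 and the phosphatase gene Ppp2ca with 75.5, and their log2 fold changes in the mutant against WT were -0.03, -0.10, -0.06 and 0.02.

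Among the remaining marker lists, the endothelial genes Kdr, Flt1 and Pecam1 met the criterion in Isl1Cre/+ against WT, at 0.52, 0.57 and 0.35, and Kdr at -0.37 in the mutant against Isl1Cre/+. Flt1 met it with any library left out, Pecam1 in 1 of 6 such fits, the one without WT library 2, and Kdr lost it in both comparisons without Isl1Cre/+ library 1 or 3 and in the latter without mutant library 1. Endothelium is among the cells with nestin and vimentin, and the summed level of its 10 markers was 342 to 376 cpm in WT, 395 to 525 in Isl1Cre/+ and 303 to 467 in mutant libraries. Nes and Vim did not meet it in any of these comparisons. Of sympathetic neuron markers, neurons that also contain peripherin, Th met it at -0.31 in the mutant against WT, Dbh and Slc6a2 at -4.21 and -4.33 in Isl1Cre/+ against WT, and Dbh at 2.95 in the mutant against Isl1Cre/+. Of these, Dbh in Isl1Cre/+ against WT met it with any library left out, and the others lost it in 1 to 3 of 6 fits. With scaling to pan-neuronal genes Th lost it, at -0.24, and so did Kdr in both comparisons and Pecam1. Slc6a2 lost it with limma voom, and Dbh in the mutant against Isl1Cre/+ with all 3 genotypes in 1 fit and with a replicate block. In that comparison Kdr also lost it in both of these and with the mitochondrial share in the model. In Isl1Cre/+ against WT, Pecam1 also lost it with library size alone, a replicate block and the mitochondrial share. The sums of the sympathetic neuron markers were 17.7 to 38.3 cpm over the 9 libraries, and the part of such neurons in the Prph level was not tested. Markers of macrophages, with 70.3 to 169 cpm, of spinal motor neurons, with 206 to 254 cpm, and of dividing cells, with 251 to 386 cpm over all libraries, had no gene that met it. Of the macrophage markers, all 9 tested lay above 0 in the mutant against Isl1Cre/+, with a median log2 fold change of 0.39, and 7 met the criterion there without mutant library 1 and 3 without the filter on low counts. All 9 lay below 0 in Isl1Cre/+ against WT, with a median of -0.27, and the median in the mutant against WT was 0.09. The 10 endothelial markers all lay above 0 in Isl1Cre/+ against WT and below 0 in the mutant against Isl1Cre/+, with medians of 0.26 and -0.16.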

How the data were processed

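RNA of whole E18.5 DRG was measured in 9 libraries. Per the study's methods, polyadenylated RNA was purified and turned into libraries whose molecules carry identifiers (UMIs). The authors mapped the reads of 1 end to mm10 with STAR 2.7.10, dropped PCR duplicates by UMI and tallied uniquely mapped reads per gene with HTSeq 0.6. The deposited counts are whole numbers without normalization, 23854607 to 29103444 per library. The annotation release and the strand option are not given in the sources used here. The table also holds the authors' limma comparisons, which were not used.

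Gene IDs, positions and lengths were taken from GENCODE M21 (54855 of 55247 IDs identical), and 15 symbols that had been turned into dates were renamed. The 13200 genes reaching 100 counts in any library were tested for each pair of genotypes with edgeR 4.0.16 (TMM, two-sided quasi-likelihood test, Benjamini-Hochberg adjustment over all genes tested) in R 4.3.3. The criterion, taken from the study, asks for a 1.2-fold difference with an unadjusted p under 0.05. With 3 libraries against 3, an exact permutation test cannot give a p under 0.1. Log2 cpm, with a prior count of 2, were used for correlations, with exact permutation over 9 libraries. DESeq2 1.42.0 and limma 3.58.1 served as alternatives, beside other scalings and filters, a replicate block and each library left out. The fits were tested on simulated data. Between libraries of a genotype the mean chi-square per gene, a variance relative to that of counting, was 12.6 to 129. None were therefore merged as 1 sample, which does not tell separate embryos from separate preparations of 1 RNA.

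The members, gene lists and rules were chosen with earlier results of these data known. Genes named are the members, Meis2 and Isl1, list genes that met the criterion, the 5 most abundant per length among other filament genes and partners, and the 3 nearest in pattern to each member. Acta1 and the single markers of spinal cord glia were named after their values were seen.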

Additional observations from a re-analysis of the deposited data

How the results depend on the processing

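No planned scaling, filter or tool moved the number of members that met the criterion from 0 in any comparison, and the number with an adjusted p under 0.05 was 0 in every setting run. Leaving out 1 library gave 0 to 1 members that met the criterion in the mutant against Isl1Cre/+ and 0 to 1 in Isl1Cre/+ against WT, and 0 in the mutant against WT. The setting of at least 100 counts in every library removed Gfap, which had no value there. Of 413 log2 fold changes of members under an alternative, 50 changed sign and 3 met the criterion, each with 1 library left out, Nefm and Gfap against Isl1Cre/+ and Gfap in Isl1Cre/+ against WT. Of the sign changes, 1 met it, that of Gfap at 2.94 against Isl1Cre/+ without Isl1Cre/+ library 1. The cause of these changes was not tested.

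In the mutant against WT, leaving out each library gave -0.36 to 0.12 for Nefl, -0.59 to 0.14 for Nefm, -0.42 to 0.10 for Nefh, -0.31 to 0.10 for Prph, -0.12 to 0.0352 for Ina, -0.0132 to 0.15 for Vim and -0.87 to 0.78 for Gfap. Against Isl1Cre/+ the ranges were -0.15 to 0.0288 for Nefl, -0.30 to 0.0429 for Nefm, -0.19 to 0.20 for Nefh, -0.19 to 0.0357 for Prph, -0.0721 to 0.10 for Vim, -0.20 to 0.022 for Nes and -0.95 to 2.94 for Gfap. In Isl1Cre/+ against WT they were -0.30 to 0.14 for Nefl, -0.49 to 0.19 for Nefm, -0.35 to 0.0238 for Nefh, -0.22 to 0.15 for Prph, -0.0317 to 0.13 for Vim, -0.15 to 0.066 for Nes and -3.35 to 1.16 for Gfap. The remaining ranges kept their sign. They were -0.24 to -0.0466 for Nes in the mutant against WT, and for Ina -0.14 to -0.00463 against Isl1Cre/+ and 0.0212 to 0.0545 in Isl1Cre/+ against WT.

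Without WT library 1 and mutant library 2, chosen after seeing the data, the mutant against WT gave 0.18 for Nefl, 0.24 for Nefm, 0.24 for Nefh, 0.20 for Prph, 0.0596 for Ina and 0.38 for Gfap. With the mitochondrial share as a covariate, also chosen after seeing the data, Nefh and Gfap came to -0.18 and 1.15 against Isl1Cre/+. In Isl1Cre/+ against WT this model gave 0.12 for Nefl, 0.16 for Nefm, 0.00556 for Nefh, 0.15 for Prph, 0.012 for Nes and 0.89 for Gfap. Scaling to pan-neuronal genes gave 0.00425 for Ina in the mutant against WT and 0.0663 for Gfap in Isl1Cre/+ against WT. Library size alone gave -0.0152 for Vim against Isl1Cre/+ and 0.0445 for Gfap in Isl1Cre/+ against WT, no filter gave -0.0087 for Vim against Isl1Cre/+, and limma voom gave 1.199 for Gfap against Isl1Cre/+.

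With the replicate number as a block, 0 members met the criterion in each comparison, and the log2 fold change of Gfap against Isl1Cre/+ came to 1.07. Deviations of libraries with the same number correlated at -0.54 to 0.43 across genotypes, no source ties the numbers to litters, and the numbers were not taken as pairs. The correlation of Nefl and Ina came to -0.41 with pan-neuronal scaling. That of Vim and Gfap came to 0.655 with library size alone, 0.642 with pan-neuronal scaling and 0.567 without the 2 farthest libraries, and those of Nefl with Nefh and with Prph to 0.670 and 0.462 without them. For the other gene lists, 128 of 812 counts under an alternative differed by over 1.5 times. Depth limited none of the abundant members, and for Gfap, with 5 to 325 counts, the spread between libraries exceeded counting error.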
